A study of Mus musculus with 6 samples.

Results

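The genes described here encode the proteins that copy the genome in S phase, from the complexes that mark replication origins to the helicase, the polymerases, the enzymes of nucleotide supply and the regulators of S phase entry. They were taken by symbol from a list of replication genes that was drawn up with earlier results of these data known. Of 54 listed genes, 49 were measured, each by the 1 transcript cluster (the probes of one locus) to which the platform's table gives that symbol alone, out of 14996 clusters naming 1 gene and 23332 clusters in all. *Pcna*, *Rfc2*, *Lig1*, *Rpa3* and *Rrm2* matched no such cluster and were not analysed here. The measured genes fell into 8 roles, with 14 in origin licensing, 9 in helicase activation, 9 among polymerases and primase, 5 in clamp loading and flap removal, 2 in single-strand binding, 3 in nucleotide supply, 4 in G1/S control and 3 in replication-coupled chromatin.

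Before a cell replicates its DNA, the origin recognition complex, Cdc6 and Cdt1 load the ring-shaped MCM helicase onto chromatin, which is called licensing. At the start of S phase the kinase Cdc7 with its partner Dbf4 and cyclin E-dependent kinase activate the loaded helicase, Cdc45 and the GINS complex join it, and primase and the replicative polymerases follow it along the unwound strands. Many of these genes are known targets of E2F transcription factors and are transcribed in cycling cells. In the dorsal neural tube they are known as genes of the dividing progenitors, which leave the cell cycle as they become neurons.

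RNA came from GFP+ cells sorted from the dorsal spinal cord of *Wnt1-cre*;*Rosa26mTmG* mouse embryos, dissected at E10.5, at E11.5 or at E12.5. All 3 stages carried the same alleles and no treatment, and each stage had 2 arrays, called replicate 1 and replicate 2 as in the labels. The reporter marks every cell whose lineage once expressed *Wnt1*-driven Cre, so that dorsal progenitors, their neurons and neural crest derivatives could all pass the sort. The sources used here do not say how many embryos were pooled or whether same-stage arrays had litters of their own, so that p-values measure only the spread between these arrays, which may be technical.

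Values are log2 signals as deposited, so that a difference of 1 stands for a doubling. A detection limit of 5.84 was set at the 95th percentile of 883 clusters, by their mean signal, of olfactory receptor and other genes of unrelated tissues. The mean signal of 38 of the 49 genes lay above it, and *Orc1*, *Cdc6*, *Gins1*, *Pola2*, *Pold1*, *Pole2*, *Fen1*, *Tyms*, *Tk1*, *E2f1* and *E2f2* lay below it. Replicate 1 of E10.5 was the least like the others, its correlation with them averaging 0.890 against 0.948 to 0.955, and had the smallest SD over clusters, 1.66 against 1.78 to 1.96. Only 15 of the 49 genes exceeded that array's own background percentile. On the other replicate 1 arrays 32 (E11.5) and 20 (E12.5) did so, and on the replicate 2 arrays 45, 46 and 41. The SD over clusters was likewise 1.66, 1.81 and 1.78 on the replicate 1 arrays, against 1.95, 1.92 and 1.96 on replicate 2. Values are therefore given on each array, or apart for the same-numbered pairs of arrays, beside the stage means. Of the markers of cells that the sort should hold, 13 of 14 measured neural progenitor genes and 13 of 14 measured neuronal genes were above the limit, with *Hes1* and *Mapt* below it. Of the neural crest markers, whose cells could also pass the sort, 5 of 7 were above it. The counts were 4 of 8 for roof plate and 3 of 10 for dorsal root ganglion neurons. Among the remaining lists they were 2 of 4 for red blood cells, 2 of 12 for microglia and 2 of 15 for mesenchyme. None passed for endothelium (0 of 12) or skeletal muscle (0 of 6). These counts rest on means over the 6 arrays and do not compare the arrays. *Postn* of the mesenchyme list, below the limit by its mean, had 8.08 on E10.5 replicate 2 and 3.60 to 5.33 elsewhere. *Cx3cr1* of the microglia list had 8.06 on E10.5 replicate 1 and 5.26 to 6.19 elsewhere. Both were named after their values were seen. In such bulk samples, fewer cycling cells and less RNA per cycling cell cannot be told apart.

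Between E11.5 and E12.5 most S phase genes were lower at the later stage in both series of arrays. The median over the 49 genes of E12.5 minus E11.5 was -0.20 in the replicate 1 pair of arrays and -0.48 in the replicate 2 pair. All clusters had a median difference of -0.02 on the stage means, against -0.35 for these genes. At E12.5, 39 genes were lower in the replicate 1 pair (50.3% of all clusters) and 48 in the replicate 2 pair (56.6%). By more than 0.5, 5 genes were lower in the former (7.89% of all clusters) and 24 in the latter (9.37%). Every gene lower in the replicate 1 pair was also lower in the replicate 2 pair. Lower values in both same-numbered pairs were found for 39 of the 49 genes, while 30.2% of all clusters behaved this way. Among genes above the detection limit the count was 31 of 38, against 31.9% of all clusters that name 1 gene and lie above the limit. Both E12.5 arrays lay below both E11.5 arrays for 25 genes, against 13.4% of all clusters, and for 20 of the 38 above the limit, against 14.8% of the clusters of that kind. The reverse order was seen for *Orc3* alone, against 8.46% of all clusters.

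Between E10.5 and E12.5 the outcome depended on the replicate number. Between the replicate 2 arrays, 47 of 49 genes were lower at E12.5 (55.3% of all clusters), with a median of -0.75. Between the replicate 1 arrays, 27 of 49 were lower (59.6% of all clusters), with a median of -0.11. That median turned to 0.09 with each array centred on its median (17 of 49 lower, against 45.6% of all clusters so centred). The replicate 1 median was -0.02 with quantile normalization and 0.04 over the 38 genes above the limit. Differences beyond -0.5 were counted for 33 genes in the replicate 2 pair, against 12.4% of all clusters, and for 4 in the replicate 1 pair, against 24.4%. By this count the genes were thus above the background share in the replicate 2 pair and below it in the replicate 1 pair. Clusters naming 1 gene above the limit had a median of 0.12 in the replicate 1 pair, and 42.0% of them were lower. Of the 38 genes above the limit, 19 were lower in that pair. By more than 0.5, 1 of the 38 was lower there, against 11.9% of those clusters. In the replicate 2 pair, 37 of the 38 were lower, against 50.6%, and 26 by more than 0.5, against 10.4%. Lower values in both pairs were found for 27 genes, against 35.0% of all clusters, and 20 were higher in the replicate 1 pair and lower in the replicate 2 pair, against 20.3%. The remaining genes were *Rfc5* and *E2f1*. Centring moved the count of genes lower in both pairs from 27 to 17, and the share of all clusters from 35.0% to 21.6%.

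Between E10.5 and E11.5 the pairs pointed in opposite directions. The median of E11.5 minus E10.5 was 0.18 in the replicate 1 pair and -0.18 in the replicate 2 pair. All clusters had medians of -0.15 and 0.0 in these pairs. Clusters naming 1 gene above the limit were also higher in the replicate 1 pair, with medians of 0.14 and 0.0. The 38 genes above the limit had 0.34 and -0.20. Lower values at E11.5 were found for 16 of 49 genes in the replicate 1 pair (60.4% of all clusters) and for 39 in the replicate 2 pair (49.3%). The direction was higher in the replicate 1 pair and lower in the replicate 2 pair for 25 genes, against 19.9% of all clusters. It was lower in both for 14, against 29.4%. Both E11.5 arrays lay below both E10.5 arrays for 4 genes (9.9% of all clusters) and above them for *Rfc5* alone (9.48%). The 3 comparisons share arrays, so that a low value at E10.5 replicate 1 enters 2 of them.

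No cluster passed an adjusted p of 0.05 in limma in any of the 3 comparisons (0 of 23332 each, or 0%). At an unadjusted p under 0.05, limma gave 928 clusters for E12.5 minus E10.5, 465 for E11.5 minus E10.5 and 212 for E12.5 minus E11.5. Of all clusters, 2.22% were lower and 1.76% higher at that level in the first comparison. The shares were 1.16% and 0.831% in the second and 0.536% and 0.373% in the third. Without moderation of the variances the 3 counts were 973, 508 and 379. With the replicate number as a block they were 2098, 1243 and 637, again with 0 past the adjusted threshold. Among the S phase genes, the limma adjusted p lay between 0.991 and 0.999 for E12.5 against E10.5 and was 1.0 for the other comparisons. With the block it lay between 0.397 and 0.982 for E12.5 against E10.5. The SE of a member's stage difference ranged from 0.29 to 0.75, with a median of 0.39. With 2 arrays against 2, an exact permutation test of a single gene cannot give a two-sided p below 0.333. All directions below are therefore those of the measured values, and none passed the adjusted threshold.

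**Figure D1:**
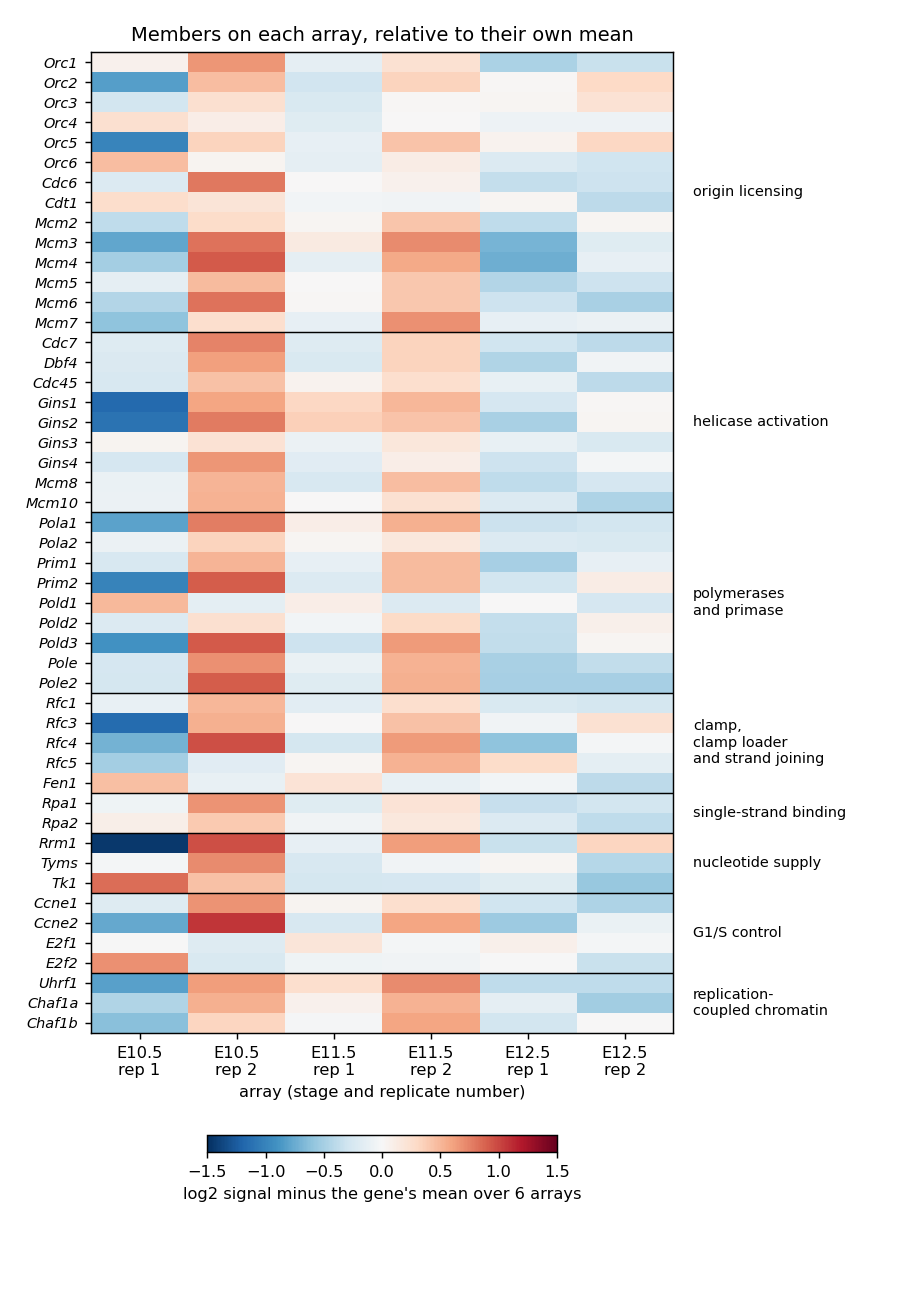
Each row is 1 of the 49 measured S phase genes, grouped by role, and each column 1 of the 6 arrays, with the colour giving the log2 signal minus that gene's mean over the arrays. The E10.5 replicate 2 column is the highest for 34 of the 49 genes, and no gene has its highest value at E12.5.

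The promoters of the genes are shown here because the S phase genes are known as E2F targets. RefSeq promoter sequences (GRCm38.p6) were matched by symbol for 46 of the 54 listed genes, and the 250 bases before the annotated start were searched on both strands. The E2F-type letters TTTCGCGC or TTTGGCGC, which can overlap one another on opposite strands, stood before 6 of these 46 genes (13.0%), against 205 of 27025 genes in the table (0.759%) and 142 of 11894 genes with a cluster on the array (1.19%). In the sequences below, written 5′ to 3′ on the gene's strand, capitals mark these letters and the rest is flanking sequence. *Mcm6* has 2 such windows, and in *Mcm5* and in the more distant *Mcm6* window a match on each strand overlaps. The starts are those of the promoter table, which holds 2 for *Uhrf1*, and the windows of *Orc1*, *Pola1* and *Uhrf1* lie inside the full span that RefSeq gives these genes, so that other transcripts start further upstream.
Mcm5, chr8:75109336-75109387, plus strand, 153 bases before the start: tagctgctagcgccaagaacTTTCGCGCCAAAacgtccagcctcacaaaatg
Mcm6, chr1:128359725-128359772, minus strand, 47 bases before the start: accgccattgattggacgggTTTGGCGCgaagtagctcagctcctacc
Mcm6, chr1:128359784-128359835, minus strand, 110 bases before the start: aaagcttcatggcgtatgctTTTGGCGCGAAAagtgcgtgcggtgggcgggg
Orc1, chr4:108579407-108579453, plus strand, 27 bases before the start: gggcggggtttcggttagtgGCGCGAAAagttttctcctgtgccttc
Pola1, chrX:93632266-93632313, minus strand, 138 bases before the start: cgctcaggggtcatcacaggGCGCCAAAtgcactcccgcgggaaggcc
Rfc3, chr5:151651209-151651238, minus strand, 10 bases before the start: ccggaagtgacgtcgcacgcTTTCGCGCtc
Uhrf1, chr17:56304108-56304155, plus strand, 185 bases before the start: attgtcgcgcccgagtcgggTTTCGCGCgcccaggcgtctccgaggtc

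These 6 genes were all lower at E12.5 than at E11.5 in both pairs, with medians of -0.38 (replicate 1) and -0.76 (replicate 2). Lower values in both pairs were also found for 39 of all 49 S phase genes and for 30.2% of all clusters. The 36 measured genes with a promoter but without the letters had medians of -0.14 and -0.40. Of them 26 and 35 were lower, against 50.3% and 56.6% of all clusters. Between E10.5 and E12.5 the 6 genes had medians of 0.28 and -1.01, with opposite signs. The 36 others had -0.11 and -0.64, and 21 and 34 of them were lower (59.6% and 55.3% of all clusters). The difference between these sets was not tested. CCAAT, the NF-Y-type letters, stood before 27 of 46 genes (58.7%), against 37.5% of all genes in the table. TTTGAA or TTCGAA, the letters of the cell cycle homology region type, stood before 9 of 46 (19.6%), the same share as in the whole table (19.6%). Of 36 further S phase genes with a promoter (list described below), 13.9% had the E2F-type letters, 55.6% CCAAT and 25.0% the last type. Of 17 mitosis genes these shares were 5.88%, 88.2% and 41.2%. A match to letters is a description and not a binding site.

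Among the 14 licensing genes, the subunits of the origin recognition complex and those of the MCM helicase had unlike values. *Orc3*, which codes for a core subunit of the complex, had signals of 8.70 and 9.21 on the E10.5 arrays, 8.74 and 8.99 on the E11.5 arrays, and 9.0 and 9.19 on the E12.5 arrays (replicate 1 first and stages in this order, here and below). It was the only S phase gene higher at E12.5 than at E11.5 in both pairs (23.3% of all clusters), at a stage difference of 0.23 ± 0.32 (SE, n = 2 arrays per stage). Against E10.5 it stood at 0.14, with pairs of 0.30 and -0.02. *Orc6*, for the smallest and most loosely bound subunit, had 9.60 and 9.18, 9.0 and 9.25, and 8.93 and 8.84. Its E12.5 arrays lay below all earlier ones, at -0.50 ± 0.31 against E10.5. *Orc1*, whose product is the subunit degraded after origins fire, had 5.32 and 5.92, 5.12 and 5.49, and 4.78 and 4.92 at the 3 stages. Although under the detection limit, it was lower at each later stage in both series, at -0.77 ± 0.34 between E10.5 and E12.5, with an unadjusted p of 0.0166 in limma with the block (adjusted p 0.471). *Orc2* and *Orc5*, 2 other core subunits, stood at 0.34 and 0.51 between E10.5 and E12.5, and *Orc4* at -0.24 (pairs -0.31 and -0.17). For *Orc2* and *Orc5* these means joined opposite pairs, 0.85 and -0.16 for the former and 1.04 and -0.02 for the latter.

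The MCM subunits form the ring that unwinds DNA, and the arrays of *Mcm3*, *Mcm5* and *Mcm6* are described by a choice made after their values were seen. *Mcm3* had signals of 6.32 and 7.91, 7.23 and 7.81, and 6.40 and 6.91. It was lower by 0.83 and 0.90 at E12.5 than at E11.5, with no overlap between these stages, whereas its E10.5 arrays differed by 1.59 and enclosed all others. The E12.5 minus E11.5 difference of *Mcm3* was -0.87 ± 0.55, and with the block its unadjusted p was 0.0416 (adjusted p 1.0). *Mcm6* had 7.72 and 8.98, 8.18 and 8.57, and 7.85 and 7.67, and was likewise below E11.5 on both E12.5 arrays. *Mcm5* had 6.90 and 7.50, 7.04 and 7.43, and 6.59 and 6.72. *Mcm5* was the one MCM subunit whose E12.5 arrays lay below every earlier array, at -0.55 ± 0.34 against E10.5 and -0.58 ± 0.34 against E11.5 (block p 0.0482, adjusted p 1.0). *Mcm2* and *Mcm4* were lower than at E11.5 in both pairs, by 0.41 and 0.39 and by 0.59 and 0.70. *Mcm7* differed from the others, at 0.00 in the replicate 1 pair and -0.77 in the replicate 2 pair. Against E10.5 the pairs of 3 subunits pointed opposite ways. They were 0.08 and -1.0 for *Mcm3* (stage means -0.46), 0.12 and -1.31 for *Mcm6* (-0.59), and 0.47 and -0.33 for *Mcm7* (0.07). Those of *Mcm2* were 0.00 and -0.25 (-0.13), and those of *Mcm4* were -0.22 and -1.05 (-0.63). The loading factor genes *Cdc6*, which was below the limit, and *Cdt1* were lower than at E10.5 in both pairs, by 0.15 and 1.11 (stage means -0.63) and by 0.23 and 0.58 (-0.41).

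**Figure D2:**
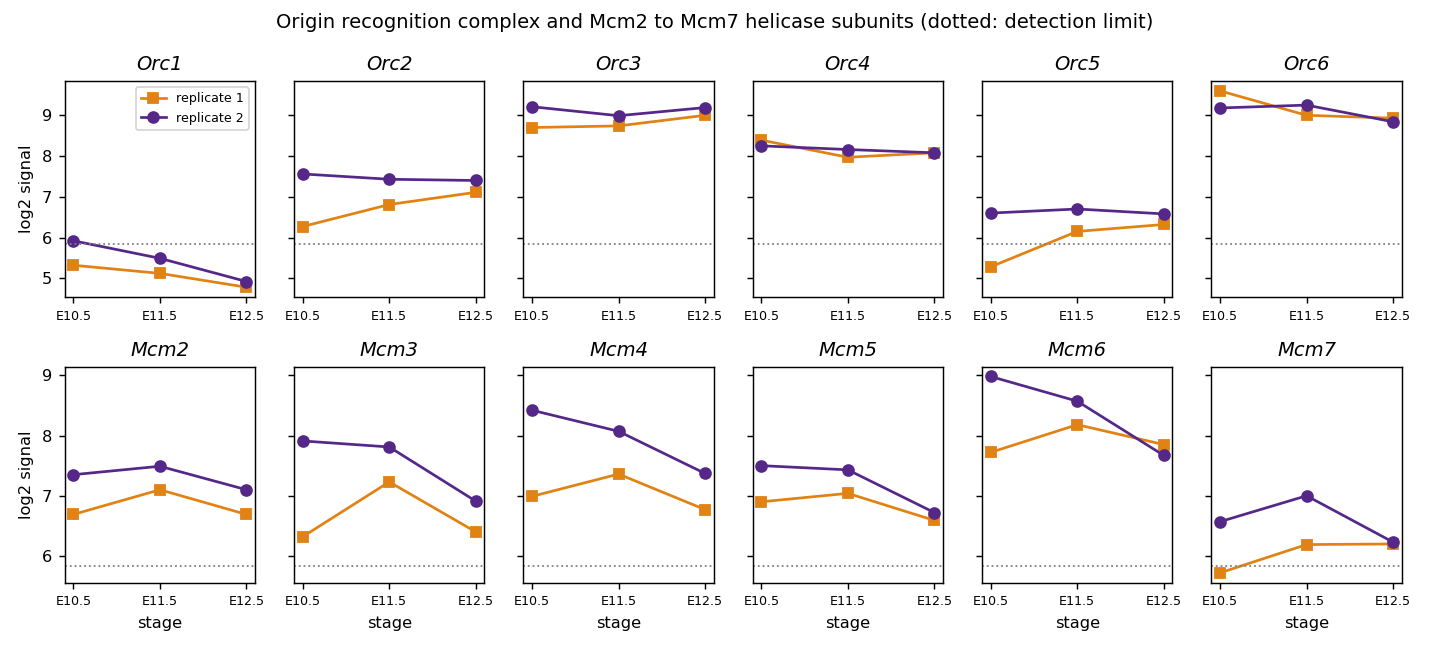
Log2 signal (vertical axis) by stage (horizontal axis) for the 6 origin recognition complex genes and the MCM subunit genes *Mcm2* to *Mcm7*, with the replicate 1 arrays as squares, the replicate 2 arrays as circles and the detection limit of 5.84 as a dotted line. *Mcm3* and *Mcm6* show replicate 1 values that peak at E11.5 and replicate 2 values that are highest at E10.5, while *Orc3* lies within 8.70 to 9.21 on all arrays.

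All 9 helicase activation genes were lower at E12.5 than at E11.5 in both pairs (30.2% of all clusters), with medians of -0.17 and -0.48. With quantile normalization or centring, 8 of the 9 were. *Dbf4*, for the regulatory partner of the kinase Cdc7, had signals of 7.97 and 8.80, 7.96 and 8.52, and 7.73 and 8.13 at the 3 stages. *Gins4*, for a subunit of the GINS complex that holds the helicase together, had 8.70 and 9.62, 8.79 and 9.05, and 8.65 and 8.92. For both genes the replicate 2 array was above the replicate 1 array at every stage, and the stages overlapped. *Mcm10*, whose product helps the assembled helicase to start, had 6.22 and 6.83, 6.32 and 6.54, and 6.10 and 5.85. *Mcm10* was lower at E12.5 than on every earlier array, at -0.55 ± 0.34 against E10.5. Against E10.5, 3 of the 9 genes had pairs of opposite sign, which were 0.13 and -0.83 for *Cdc45* (stage means -0.35), 0.64 and -0.75 for *Gins2* (-0.06), and 0.90 and -0.57 for *Gins1* (0.17, below the limit). The others were lower in both. Their pairs were -0.11 and -1.14 for *Cdc7* (-0.62), -0.24 and -0.67 for *Dbf4* (-0.45), -0.15 and -0.44 for *Gins3* (-0.30) and -0.05 and -0.69 for *Gins4* (-0.37). *Mcm8*, a relative of the helicase subunits with a known role in recombination, had -0.28 and -0.75 (-0.52). *Gins1* and *Gins2* had the widest gaps between E10.5 arrays in this group, 1.75 and 1.89.

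All 9 polymerase and primase genes were also lower at E12.5 than at E11.5 in both pairs (30.2% of all clusters), with medians of -0.32 and -0.59. With quantile normalization or centring, 8 of the 9 were. *Prim1*, for the catalytic subunit of primase, had 8.43 and 9.18, 8.55 and 9.14, and 8.17 and 8.55, with E12.5 below E11.5 on the stage means by 0.49 (E12.5 minus E11.5 of -0.49 ± 0.39). *Pola1*, for the catalytic subunit of polymerase alpha, had 6.04 and 7.61, 6.94 and 7.37, and 6.52 and 6.56. Its E12.5 arrays lay below both E11.5 arrays and between the E10.5 arrays. *Pole2*, for an accessory subunit of the leading-strand polymerase epsilon, had 5.19 and 6.37, 5.27 and 5.99, and 4.96 and 4.96. *Pole2* was below the limit on average, and its E12.5 minus E10.5 difference of -0.82 ± 0.46 came with pairs of -0.24 and -1.41 (block p 0.047, adjusted p 0.554). The catalytic subunit gene *Pole* stood at -0.65 against E10.5 (pairs -0.23 and -1.06), and its E12.5 arrays lay below all earlier ones. Pairs of opposite sign against E10.5 were those of *Pola1*, 0.48 and -1.05 (stage means -0.29), of the second primase gene *Prim2*, 0.73 and -0.79 (-0.03), and of *Pold3*, for a subunit of the lagging-strand polymerase delta, 0.54 and -0.88 (-0.17). The other genes of this role were lower in both pairs. *Prim1* had -0.25 and -0.63 (-0.44), and *Pold2*, for another delta subunit, had -0.14 and -0.17 (-0.15). *Pold1*, the catalytic delta subunit gene, had -0.48 and -0.10 (-0.29) and *Pola2*, for a polymerase alpha subunit, had -0.11 and -0.56 (-0.34), both with mean signals below the limit.

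The clamp loader opens the sliding clamp and closes it on DNA, and its genes were mixed. *Rfc3* had 6.37 and 8.06, 7.53 and 7.97, and 7.48 and 7.76, and *Rfc4* had 6.45 and 8.13, 6.89 and 7.80, and 6.55 and 7.13. In both, the E10.5 arrays differed by more than any other pair, by 1.69 and 1.68. *Rfc1*, for the large subunit, had 6.48 and 7.09, 6.43 and 6.84, and 6.36 and 6.32, with both E12.5 values under all others (-0.44 ± 0.34 against E10.5). *Rfc5*, named after its values were seen, had 6.49 and 6.84, 7.03 and 7.53, and 7.28 and 6.86. *Rfc5* was the only S phase gene whose E12.5 arrays both lay above both E10.5 arrays (9.35% of all clusters), at 0.40 ± 0.34. Its replicate 2 values separated by only 0.02 between these stages. Against E10.5 the pairs of *Rfc3* were 1.11 and -0.30 (stage means 0.41) and those of *Rfc4* were 0.10 and -0.99 (-0.45). *Fen1*, the flap endonuclease gene, had -0.49 and -0.28 (-0.39), with a mean below the limit.

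*Rpa1* and *Rpa2* encode subunits of the protein that coats single-stranded DNA, and both were lower at E12.5 than on every earlier array. *Rpa1* had 6.56 and 7.30, 6.45 and 6.83, and 6.28 and 6.35, at -0.61 ± 0.36 against E10.5. *Rpa2* had 6.89 and 7.19, 6.74 and 6.96, and 6.59 and 6.42, at -0.54 ± 0.30. Complete separation of E12.5 below E10.5, leaving E11.5 aside, was found for 18 of the 49 genes, against 14.0% of all clusters. With quantile normalization it was found for 16 of the 49 genes, against 14.4% of all clusters. With each array centred on its median it was found for 6 of the 49 genes (12.2%) and for 2449 of all 23332 clusters. After centring, the share of the genes was thus close to that of all clusters. Statements that a single gene's E12.5 arrays lay below every earlier array refer to the values as deposited. The share of all clusters with that order was not counted.

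The nucleotide supply genes went different ways. *Rrm1*, for the large subunit of ribonucleotide reductase, had 6.90 and 9.31, 8.22 and 8.98, and 8.01 and 8.67. The gap of 2.41 between its E10.5 arrays was the widest of all 49 genes, and its difference of 0.24 ± 0.75 between E10.5 and E12.5 joined pairs of 1.11 and -0.64. *Tyms*, for thymidylate synthase, had 5.60 and 6.34, 5.39 and 5.58, and 5.66 and 5.20, with 1 of its 6 signals above the limit, at -0.54 ± 0.37 against E10.5 (pairs 0.06 and -1.14). *Tk1*, for the thymidine kinase of cycling cells, had 5.20 and 4.81, 4.10 and 4.11, and 4.18 and 3.80. *Tk1* was lower than E10.5 at both later stages on every array, at -1.02 ± 0.31 for E12.5 and -0.90 ± 0.31 for E11.5. It was the only S phase gene under an unadjusted limma p of 0.05, at 0.0144 and 0.0242, where 2.22% and 1.16% of all clusters were lower at that level. All its signals were below the limit of 5.84.

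Among the G1/S genes, *Ccne1* and *Ccne2* encode the E cyclins that drive entry into S phase. *Ccne1* had 5.76 and 6.63, 5.99 and 6.20, and 5.65 and 5.49, and was lower at E12.5 than on every earlier array (-0.62 ± 0.37 against E10.5). *Ccne2* had 6.95 and 8.79, 7.48 and 8.32, and 7.18 and 7.62, with the E10.5 arrays enclosing all others (-0.46 ± 0.62, pairs 0.24 and -1.16). The activating E2F genes lay below the limit, with *E2f1* at 0.12 (pairs 0.08 and 0.16), its 6 signals between 5.35 and 5.72, and *E2f2* at -0.40 (pairs -0.69 and -0.10).

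In the replicate 2 pair the chromatin genes had the largest median E12.5 minus E11.5 difference of any role, -1.04, with -0.25 in the replicate 1 pair. *Uhrf1*, whose product brings the maintenance methyltransferase to newly copied DNA, had 7.33 and 8.77, 8.40 and 8.85, and 7.76 and 7.76. It had the smallest limma p of the 49 genes between E12.5 and E11.5, 0.12, at -0.87 ± 0.49 with pairs of -0.64 and -1.09. *Chaf1a*, for the large subunit of chromatin assembly factor 1, had 6.31 and 7.29, 6.82 and 7.28, and 6.62 and 6.24. Its pairs disagreed against E10.5 (0.31 and -1.05, mean -0.37 ± 0.41), as did those of *Uhrf1* (0.43 and -1.02, mean -0.29 ± 0.49). *Chaf1b*, for the second subunit, stood at 0.02 against E10.5 (pairs 0.35 and -0.31) and was lower than E11.5 by 0.25 and 0.58.

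**Figure D3:**
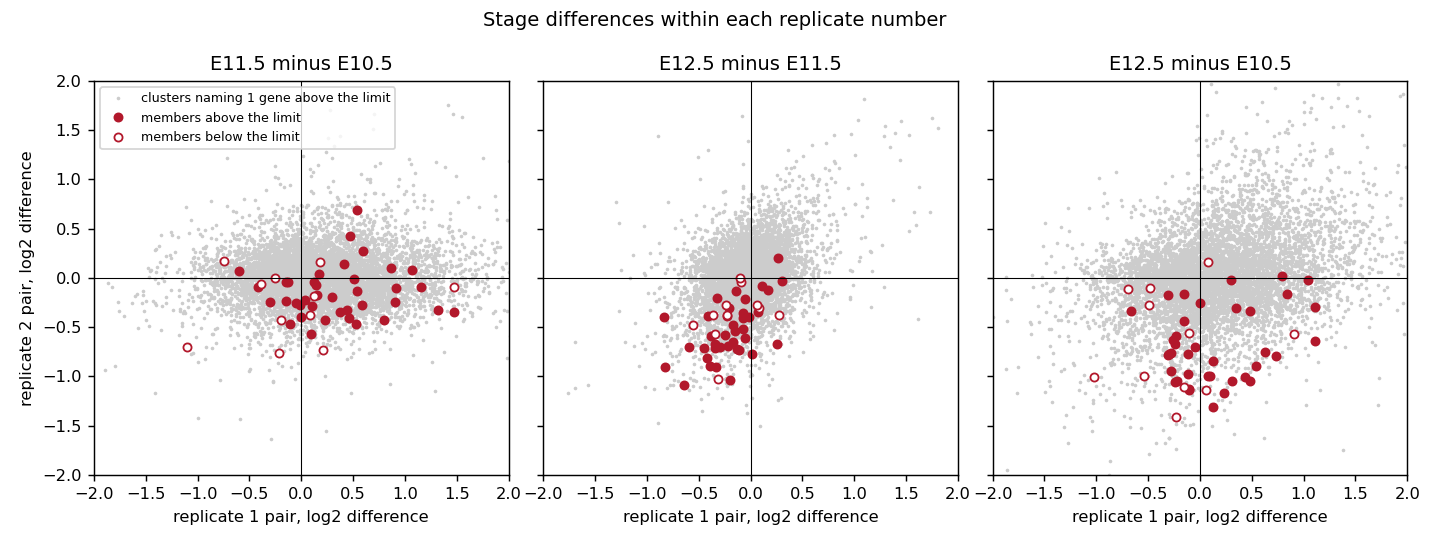
For each pair of stages, the log2 difference between the replicate 2 arrays (vertical axis) is plotted against that between the replicate 1 arrays (horizontal axis) for clusters naming 1 gene above the detection limit (grey), S phase genes above the limit (filled) and those below it (open), with axes ending at -2 and 2. The S phase genes gather in the lower left quadrant for E12.5 minus E11.5 (39 of 49) and spread along the lower side for E12.5 minus E10.5 (47 of 49 below 0).

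The differences were also read within ranges of signal. Among S phase genes with mean signals under 6, from 6 to 7, from 7 to 8 and above 8 (15, 15, 10 and 9 genes), the medians for E12.5 minus E10.5 in the replicate 2 pair were -0.75, -0.79, -0.77 and -0.64. Clusters naming 1 gene in the same ranges had medians between -0.01 and 0.00. In the replicate 1 pair the clusters themselves moved with signal, from -0.31 in the lowest range to 0.43 in the highest, while the S phase genes had medians of -0.23, 0.13, 0.17 and -0.05. Between E11.5 and E12.5 the S phase genes had medians from -0.38 to -0.15 in the replicate 1 pair and from -0.67 to -0.38 in the replicate 2 pair, with those of the clusters between -0.04 and 0.06. The direction of the S phase genes in these ranges was thus negative throughout in the latter comparison and mixed in the replicate 1 pair against E10.5.

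The replicate numbers themselves differed most at E10.5. For the 38 genes above the limit, replicate 2 exceeded replicate 1 by a median of 0.90 at E10.5, 0.45 at E11.5 and 0.13 at E12.5. The clusters naming 1 gene above the limit had 0.31, 0.15 and 0.18. Replicate 2 was higher for 35, 37 and 24 of the 38 genes, against 66.3%, 68.4% and 70.1% of those clusters. The gap of the S phase genes was thus wider than that of these clusters at E10.5 and E11.5 and narrower at E12.5. At E10.5 the median gap between arrays of 1 stage, 0.84 over all 49 genes, was larger than the median difference between E10.5 and E12.5, -0.39.

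**Figure D4:**
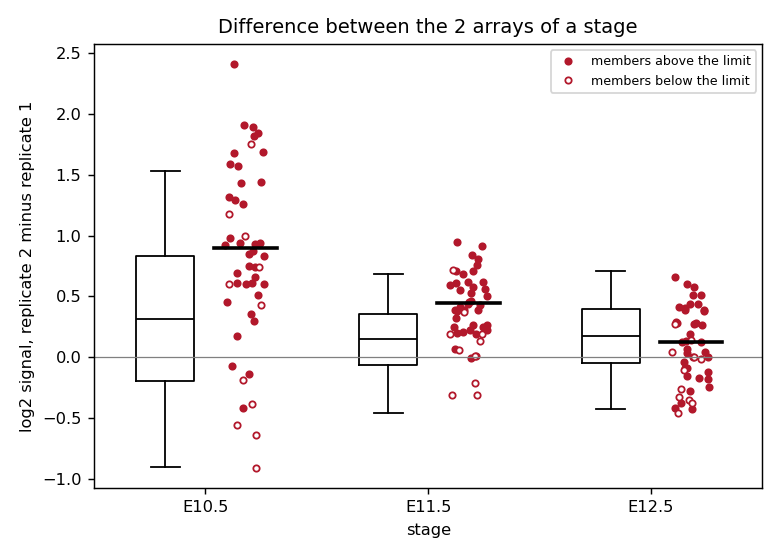
Log2 signal of replicate 2 minus replicate 1 (vertical axis) at each stage (horizontal axis), with boxes for clusters naming 1 gene above the detection limit (quartiles and median, whiskers at the 5th and 95th percentiles) and points for the S phase genes, filled above and open below the limit. The thick line, the median of the filled points, stands at 0.90, 0.45 and 0.13.

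Other genes of the cell cycle were read beside the S phase genes. Of 49 further S phase genes, 41 were measured. Of these, 35 were lower at E12.5 than at E11.5 in both pairs (30.2% of all clusters), with medians of -0.20 and -0.52. At the ends of that list, *Dscc1*, for a subunit of an alternative clamp loader, stood at -1.12 between E10.5 and E12.5 and *Exo1*, for an exonuclease of mismatch repair, at -1.0. At its other end, *Supt16*, for a histone chaperone, stood at 0.48 and *Usp1*, for a ubiquitin protease, at 0.30. Of 18 measured mitosis genes, 12 were lower at E12.5 than at E11.5 in both pairs, with medians of -0.17 and -0.69. *Mki67*, the proliferation marker, and *Cenpe*, for a kinetochore motor, both stood at -1.05 between E10.5 and E12.5. *Kif11* and *Kif20a*, for spindle motors, stood at -0.20 and -0.12. The mitosis genes also shared the replicate gap, with replicate 2 above replicate 1 by 0.86, 0.93 and 0.26 at the 3 stages.

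Genes of DNA synthesis outside S phase and of quiescence were read in the same way, beside the 30.2% of all clusters lower in both pairs. The 8 measured genes of mitochondrial DNA replication had medians of 0.06 and -0.06 between E11.5 and E12.5, and 3 were lower in both pairs. Between E10.5 and E12.5, *Ssbp1*, for the mitochondrial single-strand binding protein, stood at 0.85 and *Mgme1*, for a nuclease, at 0.14, with *Polg*, the mitochondrial polymerase gene, at -0.10 and *Polrmt*, the mitochondrial RNA polymerase gene, at -0.35. The 10 measured genes of nucleotide supply outside S phase had medians of -0.09 and 0.04 with 4 lower in both pairs, and had *Cmpk1* and *Nme1*, for nucleotide kinases, at 0.58 and 0.34 between E10.5 and E12.5. Within that list *Tk2*, the mitochondrial thymidine kinase gene, stood at 0.06 and *Samhd1*, for an enzyme that degrades deoxynucleotides, at -0.52. The 11 measured genes of translesion and repair polymerases and their associated factors had medians of 0.02 and -0.27. Of them 5 were lower in both pairs and 10 in the replicate 2 pair (56.6% of all clusters for that pair). Between E10.5 and E12.5, *Poli* stood at 0.68, *Polb* at 0.49, *Rad18* at -0.24 and *Polq* at -0.44. The 12 measured genes of quiescence and the DREAM repressor complex had medians of -0.18 and -0.21 with 7 lower in both pairs, and had *Rb1*, the retinoblastoma gene, at 0.27 and *Lin37* at 0.24, *Cdkn1b* at -0.32 and *E2f6* at -0.69 between E10.5 and E12.5. These lists hold fewer genes than the S phase list, and the difference between lists was not tested.

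Markers of progenitors and neurons were read beside the S phase genes. The median signal of the 14 progenitor markers was 7.13 and 7.61, 7.03 and 7.43, and 6.97 and 7.0 at the 3 stages. That of the 14 neuronal markers was 7.87 and 8.36, 8.48 and 8.46, and 8.59 and 8.90. Gene by gene, the progenitor markers had median E12.5 minus E10.5 differences of -0.31 (replicate 1 pair) and -0.02 (replicate 2 pair). In the replicate 2 pair 7 of 14 were lower, close to the 55.3% of all clusters. The neuronal markers had 0.39 and 0.74 and were higher in both pairs for 12 of 14. Higher values in both pairs were found for 4672 of all 23332 clusters. Among clusters naming 1 gene above the limit the share was 32.7%. Between E11.5 and E12.5, 9 of the 14 progenitor markers were lower in both pairs (30.2% of all clusters). In the same comparison, 10 of the 14 neuronal markers were higher in both (23.3%). *Olig3*, of dorsal progenitors, stood at -1.15 and *Pax6* at -0.69 between E10.5 and E12.5, against 0.49 for *Pax3* and 0.63 for *Msi1*. *Elavl4*, for a neuronal RNA-binding protein, stood at 1.12 and *Ina*, for a neurofilament, at 0.95, against -0.03 for *Gap43* and -0.68 for *Nefm*. The progenitor markers had a replicate gap of 0.37 at E10.5 and the neuronal markers one of -0.03, against 0.84 for the S phase genes. The part of the cell mixture in the S phase values was not tested.

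**Figure D5:**
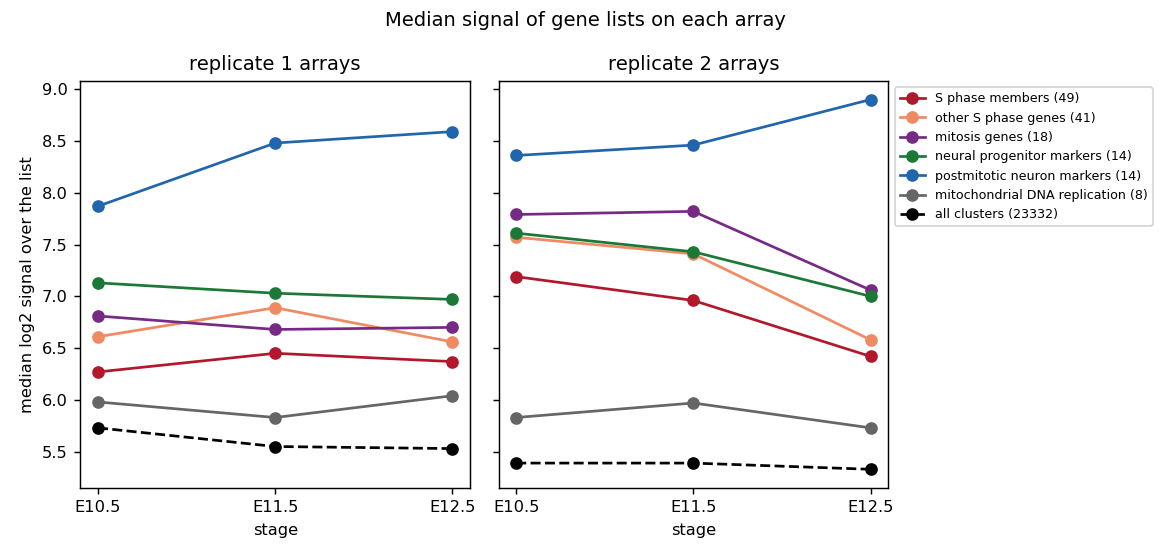
Median log2 signal over the genes of a list (vertical axis) by stage (horizontal axis), for the replicate 1 arrays (left) and the replicate 2 arrays (right), with the number of measured genes in brackets; levels of different lists are not compared. The S phase list goes from 7.19 to 6.42 between E10.5 and E12.5 on the replicate 2 arrays and stays between 6.27 and 6.45 on the replicate 1 arrays, while the neuronal list ends highest at E12.5 on both.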

How the data were processed

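The authors hybridised RNA to Affymetrix GeneChip Mouse Exon 1.0 ST arrays and deposited log2 signals of transcript clusters, normalized and summarised with oligo (version not stated) on mm9, per the submitters' processing notes. These values were used as deposited, and 0 columns were left out. Levels of different clusters were not compared. The platform's table named 1 gene for 14996 clusters, several for 1019, and did not list 7317.

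Stages were compared with limma 3.58.1 in R 4.3.3 (a mean per stage over all 6 arrays, moderated variances, Benjamini-Hochberg adjustment over 23332 clusters, threshold 0.05), after the fit was tested on simulated data. Promoter searches and figures used Python 3.11.15, pandas 2.3.3 and matplotlib 3.10.9. For arrays, depth is not counted, and their number (2 per stage) limits the precision.

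The labels give the same replicate numbers at each stage without saying what same-numbered arrays share. Across clusters, the replicate 2 minus replicate 1 differences correlated at 0.455 (E10.5 and E11.5), 0.468 (E10.5 and E12.5) and 0.484 (E11.5 and E12.5), so same-numbered arrays were read as pairs on the strength of the data.

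The members and the lists were chosen with earlier results of these data known, so no p-value over a list is given. Each member is named with its E12.5 minus E10.5 difference. Signals on every array are given, per role, for the members with the 2 highest mean signals and the member with the smallest limma p between E12.5 and E10.5. From the other lists of cell cycle and DNA synthesis genes and from the progenitor and neuron markers, the 2 highest and 2 lowest differences above the detection limit are named. The alternatives were a replicate block, an intensity trend, a robust prior, no moderation, quantile normalization, median centring, testing only clusters over the detection limit or only those naming 1 gene, fitting the compared stages alone, each replicate number alone, other rules for counting members, and leaving out each array.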

Additional observations from a re-analysis of the deposited data

How the results depend on the processing

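With 2 arrays per stage, 1 array could decide a value. The count of clusters past the adjusted threshold in limma was 0 under every alternative with all 6 arrays, the replicate block included (0 in each comparison), and the block changed no call. Leaving out single arrays gave 0 to 325 clusters for E12.5 minus E10.5, 0 to 250 for E11.5 minus E10.5 and 0 to 0 for E12.5 minus E11.5. The highest counts came without E10.5 replicate 2, when the lone E10.5 array, replicate 1, is assumed to vary like the other stages. None of the 49 S phase genes passed in any of these fits. Without single arrays the S phase median ranged from -0.82 to -0.01 for E12.5 minus E10.5, from -0.39 to 0.34 for E11.5 minus E10.5 and from -0.56 to -0.15 for E12.5 minus E11.5, crossing 0 for E11.5 minus E10.5 alone. The median for E11.5 minus E10.5, 0.01, turned to -0.01 with quantile normalization and to -0.18 among replicate 2 arrays alone. With arrays centred on their medians (an alternative for this count added after seeing the data), the genes lower in both pairs numbered 17 in place of 27 for E12.5 minus E10.5, 7 in place of 14 for E11.5 minus E10.5 and 36 in place of 39 for E12.5 minus E11.5, against 21.6%, 23.1% and 23.6% of all clusters so centred.

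Between E10.5 and E12.5, centring turned the sign of *Mcm2* (0.01), *Gins2* (0.07) and *Prim2* (0.10), and quantile normalization that of *Gins2* (0.08), *Prim2* (0.18) and *Pold3* (0.02). The sign turned for 10 genes without E10.5 replicate 1, 14 without E10.5 replicate 2, 5 without E12.5 replicate 1 and 2 without E12.5 replicate 2. Without single arrays these genes ranged from -0.31 to 0.99 (*Orc2*), -0.11 to 0.39 (*Orc3*), -0.15 to 1.17 (*Orc5*), -0.46 to 0.20 (*Mcm2*), -1.26 to 0.33 (*Mcm3*), -1.35 to 0.08 (*Mcm4*), -1.22 to 0.04 (*Mcm6*), -0.35 to 0.49 (*Mcm7*), -0.71 to 1.04 (*Gins1*), -1.0 to 0.89 (*Gins2*), -0.83 to 0.09 (*Gins4*), -1.07 to 0.50 (*Pola1*), -0.98 to 0.92 (*Prim2*), -0.61 to 0.03 (*Pold1*), -0.38 to 0.07 (*Pold2*), -1.08 to 0.74 (*Pold3*), -0.44 to 1.25 (*Rfc3*), -1.29 to 0.39 (*Rfc4*), -0.97 to 1.44 (*Rrm1*), -1.38 to 0.46 (*Ccne2*), -0.85 to 0.06 (*E2f2*), -1.01 to 0.43 (*Uhrf1*), -0.86 to 0.12 (*Chaf1a*) and -0.45 to 0.49 (*Chaf1b*). The cause was not tested.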
